A study of Mus musculus with 4 samples.

Results

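Among 13468 aortic cells sorted as smooth muscle and kept by the filters below, 189 carried at least 5 transcripts in sum of 5 antiviral genes. They were selected on measured values, as barcodes with at least 1000 UMIs (unique molecular identifiers, each standing for 1 captured transcript), at least 500 detected genes, at most 10% mitochondrial UMIs and at least 5 UMIs in sum of Isg15, Ifit1, Ifit3, Ifit3b and Rsad2. They are called interferon-responding cells here, a name for the rule and not a test of each cell. They numbered 3 of 2429 and 2 of 3265 kept cells in the control libraries WT 1 and WT 2, and 156 of 4252 and 28 of 3522 in the receptor-deleted libraries KO 1 and KO 2. Cells of the same library with 0 UMIs of these 5 genes, 11366 in all, served as the comparison.

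Type I and type III interferons bind their receptors and activate the kinases JAK1 and TYK2. A complex that holds STAT2 and IRF9 then binds the interferon-stimulated response element in the promoters of antiviral genes. Interferon gamma uses a receptor of its own and favours guanylate-binding proteins and antigen presentation. In the vessel wall such genes can be induced by interferon from other cells or by nucleic acids sensed within the cell.

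The libraries hold GFP-positive cells from the ascending aorta and arch of C57BL/6J mice aged 12 weeks. WT stands for Myh11-CreERT2.mT/mG mice (GFPiSMC) and KO for Tgfbr1/2iSMCKO mice, which carry Tgfbr1f/f and Tgfbr2f/f (receptor genes flanked by sites that Cre cuts) on top of Myh11-CreERT2.mT/mG, with 2 libraries each. Both genotypes carried the tamoxifen-inducible Cre, driven by the smooth muscle myosin promoter Myh11, and the reporter that switches from tdTomato to eGFP on recombination, and both received tamoxifen for 5 days at 4 or 11 weeks of age. Neither the course nor the number of mice behind a library is stated in the sources used here. The p-values can therefore not be read as a spread between mice. Those of KO against WT rest on the spread between these libraries, shared in part across genes. Those of interferon-responding against comparison cells rest on a spread taken from all genes. The study's question is how loss of both TGF-beta receptors changes smooth muscle cells.

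The kept cells held between 35255748 (WT 1) and 59203071 (KO 1) UMIs per library, and median depth lay between 13898 and 14768 UMIs per cell in 3 libraries and at 15383 in WT 2. With members left out, Tgfbr1 stood at 80.8 CPM (UMIs per 1000000 UMIs of the sum) in WT 1, 82.4 in WT 2, 73.5 in KO 1 and 76.0 in KO 2. Tgfbr2 stood at 51.6, 45.1, 46.2 and 47.1 CPM in the same order. Reads from the 3′ end need not cover a deleted exon, so these values check neither label. Between 10 and 13 barcodes of each library also occurred in another library, none of them a member's.

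The 5 selecting genes encode proteins that act against viruses. Isg15 is a ubiquitin-like protein that is joined to other proteins, Ifit1, Ifit3 and Ifit3b bind viral RNA or help to do so, and Rsad2 (viperin) makes a nucleotide that stops viral RNA synthesis. Since they chose the members, their values are a description and were not tested. Isg15 was the most common of them, with a UMI in 151 of 156 members of KO 1 and 26 of 28 of KO 2. It was counted at 807 CPM in the members and 16.9 CPM in the other cells of KO 1, and at 340 and 8.82 CPM in KO 2. Ifit1 stood at 331 and 2.74 CPM in KO 1 and at 162 and 1.10 CPM in KO 2. Rsad2 was seen in 27 members of KO 1 and 5 of KO 2, the fewest in KO 1 and level with Ifit3b in KO 2. The UMIs of 1 gene could reach the threshold. Isg15 alone reached 5 UMIs in 117 of 156 members of KO 1 and in 19 of 28 of KO 2. Ifit1, the next most common, had a UMI in 99 and 15 of them. In both WT 2 members and in some members of KO 1 and KO 2 all selecting UMIs were Isg15. The members, although few, held 74.8% of all UMIs of these genes in KO 1 and 30.5% in KO 2, against 16.3% and 3.08% in WT 1 and WT 2.

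Short stretches upstream of the start of these genes are shown because each holds the core of the interferon-stimulated response element, which was not part of the choice. The core was searched as GAAA, any 2 bases and GAAA again on both strands, overlaps allowed, in RefSeq windows of GRCm38.p6 that reach from 250 bases before to 50 bases after the start. For each gene 1 stretch is given. All stretches read 5′ to 3′ on the strand of the gene, and capitals mark the core.
Isg15 (chr4:156200871-156200900, minus strand, 3 overlapping cores): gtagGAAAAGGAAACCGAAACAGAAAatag
Ifit1 (chr19:34640794-34640823, plus strand): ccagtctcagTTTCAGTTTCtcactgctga
Ifit3 (chr19:34583363-34583392, plus strand): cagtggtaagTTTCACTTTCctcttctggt
Ifit3b (chr19:34607759-34607788, plus strand): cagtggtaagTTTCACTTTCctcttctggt
Rsad2 (chr12:26456553-26456582, minus strand): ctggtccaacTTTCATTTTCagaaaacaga
The stretches of Ifit3 and Ifit3b are the same letter for letter, and reads of this near-identical pair may not be assigned with certainty to either. Leaving Ifit3b out of the sum changed the members to 155 in KO 1 and 27 in KO 2.

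Members were more frequent in both KO libraries than in either WT library, and in KO 1 than in KO 2. They made up 0.124% of kept cells in WT 1 (95% exact Clopper-Pearson interval 0.0255 to 0.361%), 0.0613% in WT 2 (0.00742 to 0.221%), 3.67% in KO 1 (3.12 to 4.28%) and 0.795% in KO 2 (0.529 to 1.15%). The intervals cover counting error only, and since the rule used these values no test was made. With every cell thinned to 5000 UMIs and at least 2 selecting UMIs required, the shares were 0.314, 0.161, 4.78 and 1.19%, in the same order of libraries, after 197, 162, 150 and 169 shallower cells were left out. Just inside the threshold lay 28 cells with exactly 5 UMIs in KO 1 and 7 in KO 2, and just outside it 50 and 13 cells with exactly 4.

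**Figure D1:**
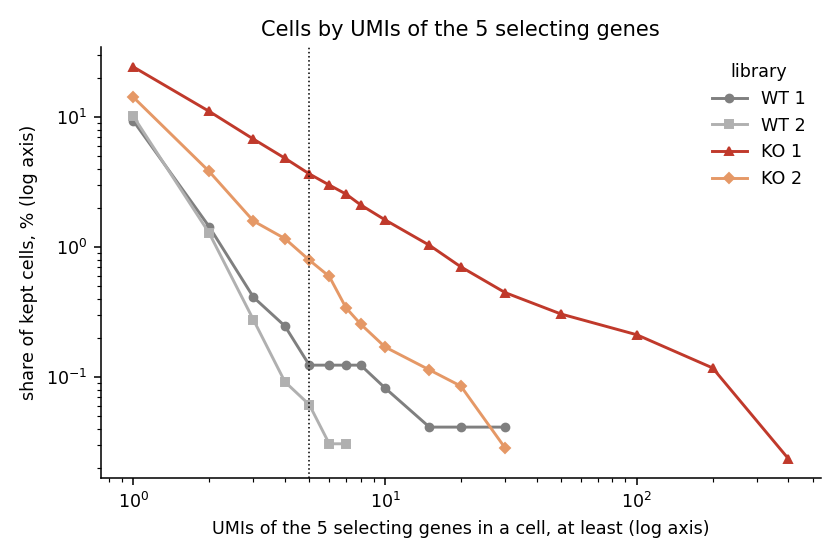
Share of kept cells (y axis, %, log scale) with at least the number of selecting UMIs on the x axis (log scale), 1 line per library and the rule's threshold of 5 dotted. KO 1 lies above KO 2 and both lie above the WT libraries from 1 UMI to the last point of each WT line, except at 30 UMIs, where 1 cell of WT 1 lies above 1 cell of KO 2.

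How strongly a member responded varied widely in KO 1. There, 87 members had 5 to 9 selecting UMIs, 39 had 10 to 19, 17 had 20 to 49 and 13 had 50 or more, with a median of 8.5 and a highest cell at 545. In KO 2 the counts were 22, 3, 3 and 0, with a median of 6 and a highest cell at 47. The 3 WT 1 members had between 9 and 33 and the 2 WT 2 members 5 and 7. Depth was near that of the comparison cells, with medians of 14610 against 13738 UMIs in KO 1 and 16036 against 14254 in KO 2, and the mitochondrial share was 3.52% against 3.79% and 3.41% against 3.86%. None of the barcodes left out by the filters reached 5 selecting UMIs, and in sum their level of the 5 genes was 10.9 CPM in WT 1, 2.71 in WT 2, 16.9 in KO 1 and 7.96 in KO 2.

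Most members carried the markers of smooth muscle, and 7 lacked them or carried another type's markers. The 6 defining markers Myh11, Acta2, Tagln, Cnn1, Lmod1 and Myl9 summed to a median of 55155 CPM per member in KO 1 and 44845 CPM in KO 2, against 56118 and 52943 CPM in the comparison cells. A criterion set after the values were seen (at least 5000 CPM of these 6 genes and fewer than 20 UMIs of endothelial or macrophage markers, leaving out Fabp4) was met by 182 of 189 members. The 7 others were 4 cells of KO 1 and 3 of KO 2, or 2.56% and 10.7% of the members there, against 0.311% and 0.331% of comparison cells. Among them, 3 had between 86 and 124 endothelial UMIs and at most 3 UMIs of Myh11, and 1 had 82 endothelial UMIs together with 88 of Myh11. Another had 671 macrophage UMIs, 157 of them C1qa. Another had 181 UMIs of fibroblast markers, 132 of them Dcn, and the last had 63, with 12 of Lum, beside 64 UMIs of Hhip. Results are therefore given for the members by the rule, with the value under the smooth muscle criterion beside each count. Markers of T and NK cells and of neutrophils were at 0 in the members of both KO libraries, and B cell markers held 2 UMIs, both Ighm in KO 1.

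**Figure D2:**
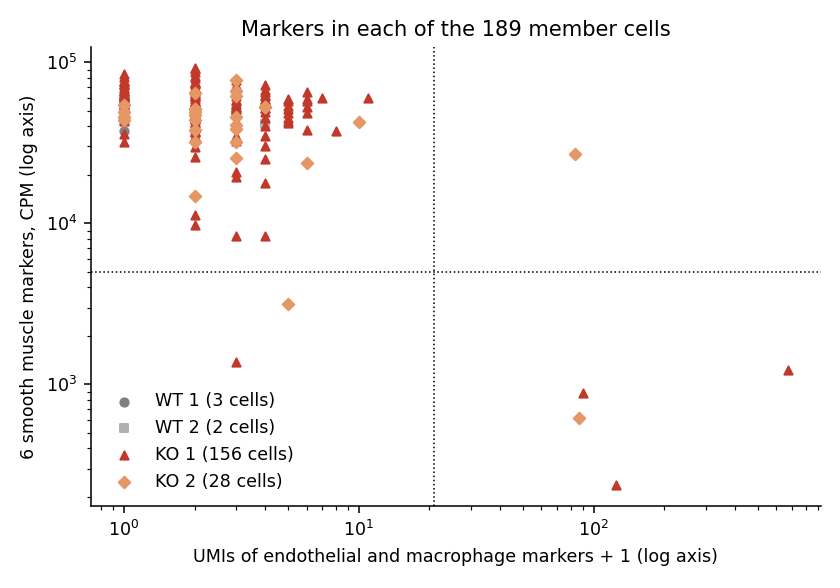
Each point is 1 of the 189 members, with the UMIs of endothelial and macrophage markers plus 1 on the x axis (log scale) and the summed level of 6 smooth muscle markers in CPM on the y axis (log scale). Dotted lines mark the criterion; the 7 cells outside it lie below 5000 CPM or to the right of the vertical line.

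The members were compared with the cells of 0 selecting UMIs in KO 1 and KO 2 over all other genes, as counts summed per library and class, with edgeR's quasi-likelihood test and the library as a block. Of 13200 tested genes, 250 (1.89%) rose and 50 (0.379%) fell at an adjusted p under 0.05. Under the smooth muscle criterion 141 (1.07%) rose and 34 (0.259%) fell of 13122, of which 132 and 31 were shared with the first fit. Of the 12 lists of interferon-response genes, 114 genes could be tested; 75 rose, none fell, and their median log2 difference was 1.82, against -0.02 over all tested genes. Under the criterion 63 of 108 rose, with a median of 1.32. These lists were written with earlier results of these libraries known. Without the block 154 genes rose and 4 fell, 67 of the former being interferon-response genes, and 93 rose and 1 fell without cells that had 2 or more UMIs of other cell types' markers, 53 of the former in these lists. The fit has 1 residual degree of freedom and takes its spread from all genes, so a gene whose UMIs come from 1 cell can pass.

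The antiviral effectors were the largest group. Of 37 tested, 31 rose and 6 did not pass (28 and 7 of 35 under the criterion), and all 37 log2 differences lay above 0. Rtp4, a chaperone of receptors that is induced by interferon, was counted at 2.05 CPM in comparison cells and 96.8 CPM in members of KO 1, and at 0.855 and 34.4 CPM in KO 2. Both libraries moved the same way, by a log2 difference of 5.48 ± 0.32 (SE, adjusted p = 1.22e-60). Oasl2, an oligoadenylate synthase-like protein, rose from 1.14 to 56.7 CPM in KO 1 and from 0.689 to 40.5 CPM in KO 2, by 5.72 ± 0.42 (adjusted p = 4.18e-39). It had a UMI in 56 of 156 and 10 of 28 members, against 1.3% and 0.9% of comparison cells. Ifitm3, a membrane protein that blocks viral entry, was abundant in all cells. It rose from 511 to 1365 CPM in KO 1 and from 416 to 984 CPM in KO 2, by 1.34 ± 0.09 (adjusted p = 4.87e-50), and had a UMI in every member of both libraries and in 96.0 and 94.4% of comparison cells. Bst2 (tetherin), which holds budding virus at the cell surface, rose from 71.5 to 263 CPM and from 60.0 to 162 CPM, by 1.74 ± 0.11 (adjusted p = 2.87e-52). Xaf1 rose by 2.90 ± 0.16 (adjusted p = 1.98e-65) and was found in 107 members of KO 1 and 15 of KO 2. Ifi27l2a rose by 3.48 ± 0.12 (adjusted p = 2.5e-188), but only 45 and 4 members had a UMI of it, and 1 cell held 26.2% of its UMIs in the members of KO 1 and 46.1% in those of KO 2. These are cells outside the smooth muscle criterion, the one with macrophage markers (217 of 828 UMIs) and the one with Hhip (41 of 89). Another KO 2 cell outside the criterion held 10 of the 89. Under the criterion the difference was 2.97 (adjusted p = 1.31e-120), which in KO 2 rests on the few cells with a UMI that are left. Ifitm2 had a log2 difference of 0.15 and Daxx of 0.30, and neither passed.

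The response element was frequent upstream of the genes that rose. Of the 61 interferon-response genes that rose and have a RefSeq window, 27 (44.3%) held this core, against 343 of 10067 (3.41%) of all tested genes with a window. By the rule, 43 of the 179 genes that rose and have a window (24.02%) held it, and under the criterion 38 of 110 (34.5%). Of those 110, 58 were in no interferon-response list, and 15 of the 58 (25.86%) held it. None of the 37 genes that fell by the rule and have a window did. With a share of 3.41% over all tested genes, 37 genes are too few to show a lack of the core. The gamma-activated site TTCNNNGAA was found in 12 of the 61 (19.7%), against 815 of 10067 (8.10%). The shares are a description; a match is a set of letters and not a bound site. The stretches below belong to a membrane protein, a GTPase, an MHC subunit and an inhibitor from the groups in this account. They were picked among the genes that hold the core, and capitals again mark it.
Bst2 (chr8:71537580-71537609, minus strand, 2 overlapping cores): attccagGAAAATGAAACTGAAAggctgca
Gbp2 (chr3:142620594-142620623, plus strand): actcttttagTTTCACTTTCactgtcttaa
B2m (chr2:122147538-122147567, plus strand): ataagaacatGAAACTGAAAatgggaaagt
Socs1 (chr16:10785597-10785626, minus strand, 2 overlapping cores): cttgccgGAAAGAGAAACCGAAAgcggggg

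The transcription factors of the response rose as well. Of 8 tested, 5 rose, and 5 of 8 did so under the criterion. Irf9, the DNA-binding partner of STAT2, rose from 17.9 to 86.2 CPM in KO 1 and from 11.9 to 76.9 CPM in KO 2, by 2.40 ± 0.17 (adjusted p = 2.26e-40). Stat2 rose by 2.16 ± 0.24 (adjusted p = 1.05e-16). Irf7, which amplifies interferon production, rose from 1.73 to 43.5 CPM in KO 1 and from 1.31 to 8.10 CPM in KO 2, by 4.12 ± 0.46 (adjusted p = 1.68e-16), and the value in KO 2, 2.55 alone, rests on 4 UMIs. Irf3, which is present in cells before any stimulus, had a log2 difference of 0.09, and Irf2 and Etv6 did not pass either.

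Sensors of foreign RNA and DNA followed in part. Of 9 tested, 5 rose (4 of 8 under the criterion). Ifih1 (MDA5), a sensor of long double-stranded RNA, rose from 3.57 to 36.5 CPM and from 3.49 to 18.2 CPM, by 3.06 ± 0.34 (adjusted p = 2.02e-16). Ddx58 (RIG-I), which senses short RNA ends, rose by 2.05 ± 0.18 (adjusted p = 1.51e-27). The adaptor Mavs had a log2 difference of -0.09 and Tmem173 (STING) of -1.68, neither passing, and Tmem173 rests on 1 UMI in the members of KO 1. Of the genes of ISG15 conjugation, 4 of 5 rose in both fits. Usp18, the protease that removes ISG15 and dampens receptor signalling, rose from 2.54 to 86.2 CPM in KO 1 and from 1.47 to 30.4 CPM in KO 2, by 4.86 ± 0.32 (adjusted p = 2.68e-49). The E3 ligase Herc6 rose by 2.02 ± 0.26 (adjusted p = 3.42e-12), and the activating enzyme Uba7 had 1.73 ± 0.55 (adjusted p = 0.062).

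Guanylate-binding proteins and immunity-related GTPases, which attack the membranes around intracellular pathogens, rose in nearly all measured members of the list. Of 13 tested, 12 rose (11 of 12 under the criterion), with a median log2 difference of 3.29. Iigp1 rose from 10.1 to 161 CPM in KO 1 and from 8.24 to 144 CPM in KO 2, by 4.04 ± 0.15 (adjusted p = 1.37e-143), and 1 cell held 40.8% of its UMIs in the members of KO 2. Cells outside the criterion held 32 of its 365 UMIs in the members of KO 1 and 39 of 71 in those of KO 2, and under the criterion the difference was 3.71. Gbp3 rose from 3.94 to 57.6 CPM and from 3.40 to 26.3 CPM, by 3.58 ± 0.30 (adjusted p = 7.35e-29). Irgm1 rose by 2.76 ± 0.18 (adjusted p = 6.38e-48) and Gbp2 by 1.86 ± 0.19 (adjusted p = 4.94e-19). Reads of such near-identical families may not be assigned with certainty to any of their genes.

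Genes of MHC class I and antigen presentation had smaller differences by their median. Of 19 tested, 12 rose (9 of 18 under the criterion), with a median of 1.12, or 0.75 under the criterion. Psmb8, a catalytic subunit of the immunoproteasome, rose from 5.67 to 48.8 CPM and from 5.15 to 28.3 CPM, by 2.90 ± 0.28 (adjusted p = 4.18e-22). H2-K1, a classical class I heavy chain, rose from 98.3 to 221 CPM and from 99.5 to 204 CPM, by 1.12 ± 0.11 (adjusted p = 8.93e-23). The 7 cells outside the criterion held 112 of its 503 UMIs in the members of KO 1 and 54 of 101 in those of KO 2, and without them the log2 difference was 0.67 (adjusted p = 3.02e-07). B2m, the light chain, rose by 0.62 ± 0.09 (adjusted p = 3.61e-09). Class II genes rose in 3 of 6 and, under the criterion, in none of 5. Cd74, the class II invariant chain, rose by 3.45 ± 0.55 (adjusted p = 4.8e-08) by the rule, 1.95 in KO 1 alone, and had -0.16 under the criterion.

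**Figure D3:**
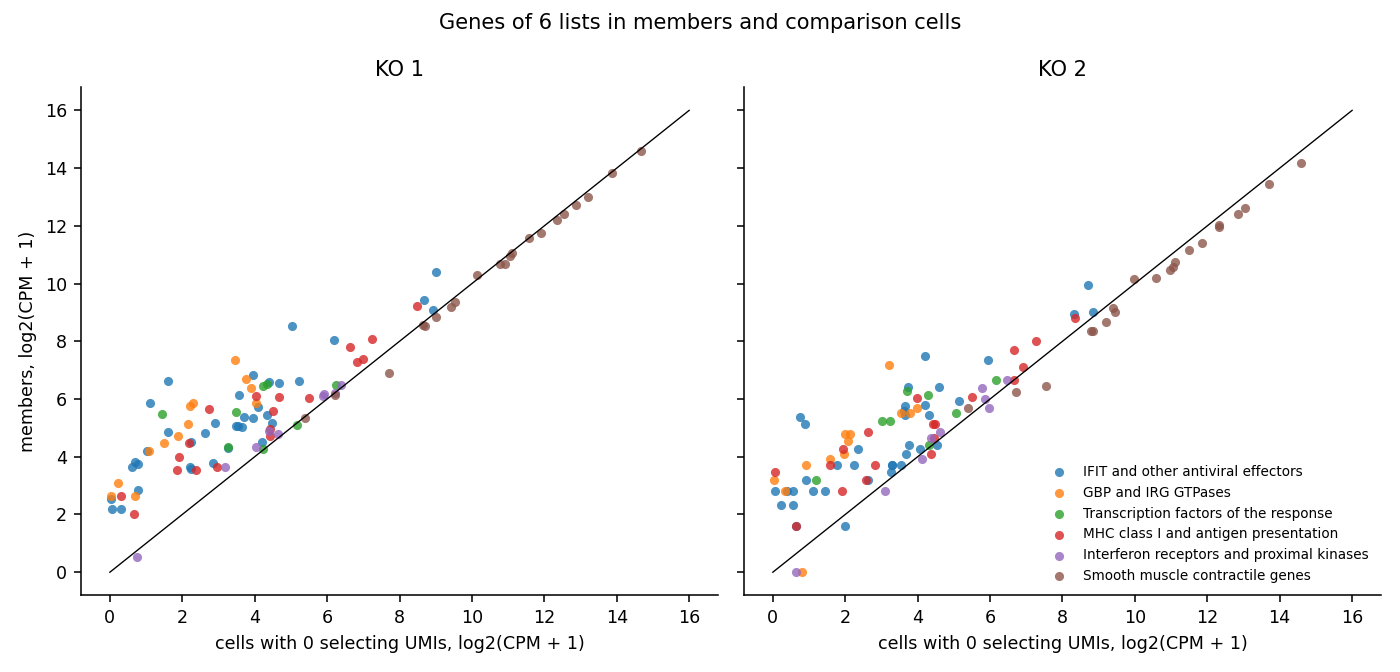
Level of each tested gene of 6 lists in comparison cells (x axis) and members (y axis), both log2(CPM + 1), in KO 1 and KO 2, 1 point per gene, with the line of equality. Most effector and GTPase genes lie above the line in both libraries, while smooth muscle contractile genes lie on or slightly below it.

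Receptors and kinases upstream of the response gave no call. None of 9 tested receptor and kinase genes passed, in either fit. Ifngr1 had a log2 difference of 0.36 ± 0.14 (adjusted p = 0.284), Ifnar2 of 0.20 ± 0.15 and Jak1 of 0.14 ± 0.13. The matrix lists 21 interferon genes, of which 17 were at 0 in all 13468 kept cells, and the 4 others held 8 UMIs in all. None of these lay in a member. Over the 189 members pooled, counting error alone allows a share with an interferon UMI of up to 1.59%; at so few UMIs this sets no limit on the share of members that express an interferon. Among feedback inhibitors, Usp18 and Socs1 rose of 5 tested in both fits. Socs1, which blocks JAK kinases, rose from 6.98 to 23.3 CPM and from 5.15 to 14.2 CPM, by 1.67 ± 0.33 (adjusted p = 3.34e-05), and Socs3 had -0.85 ± 0.62 (adjusted p = 0.907). Chemokines rose in 3 of 4 (2 of 4 under the criterion). Cx3cl1, a membrane-bound chemokine, rose by 1.23 ± 0.31 (adjusted p = 0.00465), or 1.93 in KO 2 alone, and Cxcl12 had -0.12. Cxcl16 rose by 1.67 ± 0.44 (adjusted p = 0.0083) by the rule and had 0.94 under the criterion (adjusted p = 0.801). The symbol of the third, Ccl19, is shared by more than 1 gene identifier, so its value is not given.

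Genes of smooth muscle contraction were slightly lower in members. Of 21 tested, 7 fell and none rose (5 fell and Mustn1 rose under the criterion). The median was -0.24, or -0.17 under the criterion, against -0.02 over all tested genes in both fits. Des, the intermediate filament desmin, fell from 209 to 119 CPM in KO 1 and from 186 to 87.0 CPM in KO 2, a log2 difference of -0.89 ± 0.12 (adjusted p = 1.07e-11). Myh11, smooth muscle myosin, fell from 7497 to 6748 CPM and from 7375 to 5422 CPM, by 0.29 ± 0.08 on the log2 scale (adjusted p = 0.0105), with -0.15 in KO 1 alone and -0.44 in KO 2 alone. Cnn1 (calponin) fell by 0.37 ± 0.08 (adjusted p = 0.000778), with -0.24 in KO 1 alone, and Acta2 (smooth muscle actin) had -0.24 ± 0.08 (adjusted p = 0.0678). The largest fall among the genes named by size was Sparcl1, a matricellular protein, from 729 to 427 CPM and from 690 to 291 CPM, by 0.95 ± 0.09 (adjusted p = 6.93e-21). Of 11 heat shock genes 4 fell in both fits, all 11 with a log2 difference below 0. Hspb1 fell from 2052 to 1875 CPM and from 2809 to 1605 CPM, by 0.45 ± 0.08 (adjusted p = 7.69e-06), with -0.13 in KO 1 alone and -0.81 in KO 2 alone, and Hspa1a by 0.51 ± 0.10 (adjusted p = 3.66e-05). The falls depended on the fit: 4 genes fell without the library block, 3 with DESeq2 and 13 with limma-voom, in place of 50.

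Genes of the matrix and of TGF-beta responses moved little in members. Of 25 elastic fibre and collagen genes 2 rose, Eln and Fbln2, and neither did so under the criterion, where Eln (elastin) had 0.17 in place of 0.65. Of 18 TGF-beta target genes, 1 rose and 2 fell (1 and 0 under the criterion). The pair that fell were Postn (periostin) by 0.31 and Ccn2, a matricellular growth factor binder, by 0.32 on the log2 scale. In 1 library alone these differences ranged from -0.63 to -0.083 for Postn and from -0.45 to -0.21 for Ccn2. Eln stood at 0.36 in KO 1 alone and at 1.05 in KO 2 alone. Fn1 (fibronectin) rose from 270 to 357 CPM and from 321 to 502 CPM, by 0.51 ± 0.09 (adjusted p = 8.94e-06). None of 14 endoplasmic reticulum stress genes passed. Casp4 (caspase 11), which is activated by bacterial lipopolysaccharide in the cytosol, rose by 1.43 ± 0.34 (adjusted p = 0.00172). Vcam1, an adhesion molecule, rose by 2.28 ± 0.15 (adjusted p = 2.81e-47), and by 1.39 under the criterion (adjusted p = 4.24e-13); 1 cell held 83.8% of its UMIs in the members of KO 2.

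Markers of other cell types moved with the members. Of 11 tested endothelial genes 9 rose by the rule, and 1 of 6, Fabp4, under the criterion, and of 8 fibroblast genes 5 and 1 rose. Cells with 2 or more UMIs of other cell types' markers made up 41.7% of members and 26.6% of comparison cells in KO 1, and 53.6 and 23.75% in KO 2. Beyond the fits with such cells left out, their part in the results was not tested. The endothelial list summed to 337 CPM in the members and 204 CPM in comparison cells of KO 1, and to 745 and 215 CPM in KO 2. In KO 2, 2 cells outside the criterion held 86 and 82 of the members' endothelial UMIs, not counting Fabp4. Macrophage markers summed to 292 and 3.81 CPM in KO 1 and to 2.13 and 1.71 CPM in KO 2, where 14 of 15 were at 0 in the members. Nearly all of the macrophage UMIs in the members of KO 1, 671 of them, came from 1 cell outside the criterion. Ctla2a, Cytl1 and Vwf stood among the 12 largest rises, and 1 cell held 94.1, 75.7 and 68.1% of their UMIs in the members of KO 1. Vwf had 0.95 (adjusted p = 0.999) and Cytl1 -1.15 (adjusted p = 0.999) under the criterion. The reporter tdTomato, marking cells without recombination, rose by 1.16 ± 0.31 (adjusted p = 0.0105), with 0.50 in KO 1 alone and 2.31 in KO 2 alone, and had -0.24 under the criterion, while eGFP had -0.14 ± 0.08 (adjusted p = 0.762).

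In both KO libraries other genes of the response were higher with more selecting UMIs up to 9, and beyond that the order held in KO 1 only. The effectors, OAS family, sensors, transcription factors, ISG15 conjugation genes and GTPases, without the selecting genes, were summed over cells that met the smooth muscle criterion. In KO 1 they stood at 2062 CPM in cells with 0 selecting UMIs, 2528 with 1, 2873 with 2, 3301 with 3 to 4, 3939 with 5 to 9, 4787 with 10 to 19, 7258 with 20 to 49 and 15571 with 50 or more. In KO 2 the first 5 groups stood at 1799, 2106, 2551, 2975 and 3296 CPM, and the 3 cells each with 10 to 19 and 20 to 49 at 6230 and 4999 CPM. Some members lay below the level of the cells with 0 selecting UMIs in their library. Among these were cells at 1074 CPM in KO 1 and at 1523 CPM in KO 2. WT 1 and WT 2 cells with 0 selecting UMIs stood at 1358 and 1352 CPM, those with 1 at 1449 and 1427, those with 2 at 1418 and 1472, and those with 3 to 4, 7 cells in each library, at 1726 and 1690 CPM. The WT 1 members, 1 cell each with 9, 10 and 33 selecting UMIs, stood at 5230, 2089 and 7920 CPM and followed no order. Every KO group thus lay above the WT groups of the same number of UMIs up to 4. In the 13 strongest cells of KO 1, Cxcl10, a chemokine for T cells, was counted at 151 CPM, and it was at 0 in the other groups of that library. Usp18 stood at 459 CPM and Irf7 at 224 CPM in those cells, against 33.5 and 14.02 CPM in cells with 5 to 9. Myh11 stood at 7903 CPM in them and at 7349 CPM in cells with 0. Leaving out the members with 20 or more selecting UMIs left 150 genes that rose, 46 of them interferon-response genes, and 19 that fell.

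**Figure D4:**
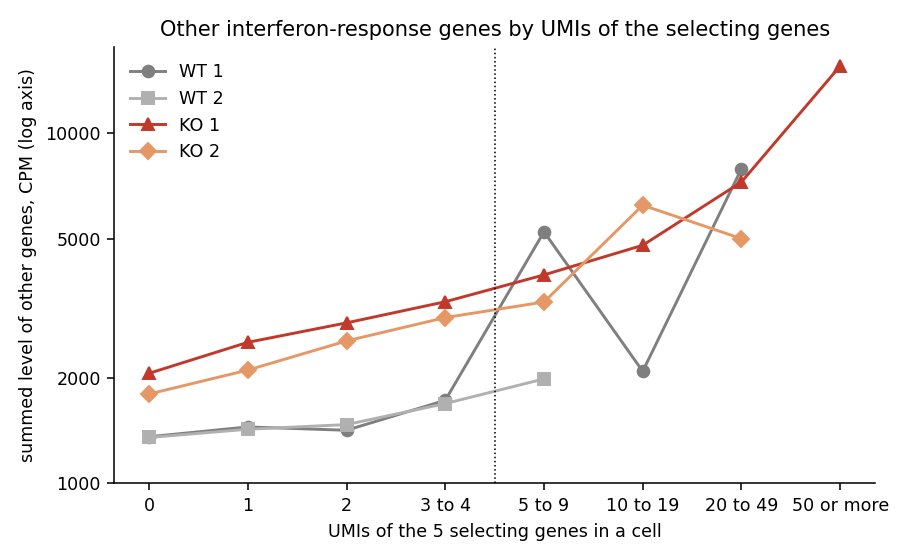
Summed level in CPM (y axis, log scale) of the interferon-response genes of 6 lists, without the selecting genes, by the number of selecting UMIs in a cell (x axis), 1 line per library, over cells that met the smooth muscle criterion. The dotted line marks the rule; the WT 1 points to its right are 1 cell each and the WT 2 point is 2 cells.

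By their medians, members held more genes of the response per cell than comparison cells. With every cell thinned to 5000 UMIs, a median of 11 of 97 other interferon-response genes had a UMI per member in KO 1 and 11 in KO 2, against 5 in comparison cells of both libraries. The lower quartiles of members, 8 in KO 1 and 7 in KO 2, lay below the 95th percentile of comparison cells, 9 in both. Under the smooth muscle criterion the medians of members were 10.5 and 10, against 5 in comparison cells of both. After this thinning members of KO 1 had 4 to 47 of these genes and comparison cells 0 to 24. Under the criterion the ranges were 4 to 47 and 1 to 17, so they overlapped either way. The 3 WT 1 members then had 9 to 13 and the 2 WT 2 members 5 to 9, against medians of 4 in the comparison cells of both. Without thinning the medians were 20.5 in members of KO 1 and 23 in those of KO 2, against 10 in comparison cells of both.

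Whether the KO libraries also differed from WT in the cells below the threshold was tested after the members were removed. Of 14439 genes, 1312 (9.09%) rose in KO and 1637 (11.3%) fell; without WT 1 the counts were 756 and 1019. Of 109 tested interferon-response genes 51 rose and 4 fell, with a median log2 difference of 0.43, against -0.01 over all tested genes. Over all kept cells 53 of 111 rose, the same 51 among them, with a median of 0.48. In the cells with 0 selecting UMIs 41 rose. Markers of other cell types moved in the fit without members too, where 6 of 9 endothelial genes rose and 2 fell (median 1.64), and 4 of 9 fibroblast genes rose and 2 fell (median 0.51). Under the smooth muscle criterion 50 of 109 interferon-response genes rose and 4 fell, with a median of 0.42, while 2 of 7 endothelial and 3 of 8 fibroblast genes rose and 2 of each fell. The level of Ifi27l2a was 2.18 CPM in WT 1, 1.79 in WT 2, 39.5 in KO 1 and 19.9 in KO 2, a log2 difference of 3.92 ± 0.34 (adjusted p = 0.00018). Ifitm3 stood at 174 and 171 CPM in WT and at 549 and 423 CPM in KO, a difference of 1.5 ± 0.11 (adjusted p = 8.25e-05). In both genes the genotypes did not overlap.

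Genes differed in how far the members carried the difference between genotypes. Oasl2 rose by 3.36 ± 0.58 over all kept cells (adjusted p = 0.00537) and by 2.53 ± 0.44 without the members (adjusted p = 0.00522), who held 51.8% of its UMIs in KO 1 and 26.3% in KO 2. Usp18 rose by 2.12 and 1.48, the members holding 47.0 and 14.9% of its UMIs. The call for Usp18 without the members (adjusted p = 0.0326) was lost when any 1 library but KO 2 was left out, and its difference was 0.76 without KO 1 (adjusted p = 0.164). For Ifitm3, of which members held 9.0 and 2.2%, the differences were 1.54 and 1.5. Psmb8 rose by 2.29 and 2.11 and H2-T23, a nonclassical class I chain, by 1.37 and 1.27. The GTPase list had 11 of 12 genes higher in both fits, with medians of 1.30 and 0.99, and the effectors 18 of 36 and 16 of 34, with medians of 0.54 and 0.39. Class I genes were mixed, with 9 higher and 2 lower of 19 in both.

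For the feedback inhibitor Socs1, which rose in members, the genotypes differed the other way. Socs1 was lower in KO than in WT cells below the threshold, at 7.13 and 5.24 CPM against 19.5 and 9.29 CPM, a log2 difference of -1.19 ± 0.31 (adjusted p = 0.0281). WT 1 stood well above WT 2; without WT 1 the difference was -0.59 (adjusted p = 0.0800) and without KO 2 -0.99 (adjusted p = 0.0759), neither passing. Cxcl12, which gave no call in members, was higher in KO at 78.3 and 82.1 CPM against 39.0 and 42.5 CPM, by 0.97 ± 0.07 (adjusted p = 8.39e-05). Xaf1 rose strongly in members and had 0.44 ± 0.15 between genotypes without them (adjusted p = 0.0707). The 2 WT libraries hold 5 members in all, so whether members themselves differ between genotypes was not tested. In these pooled sums fewer responding cells and less RNA per cell cannot be told apart.

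**Figure D5:**
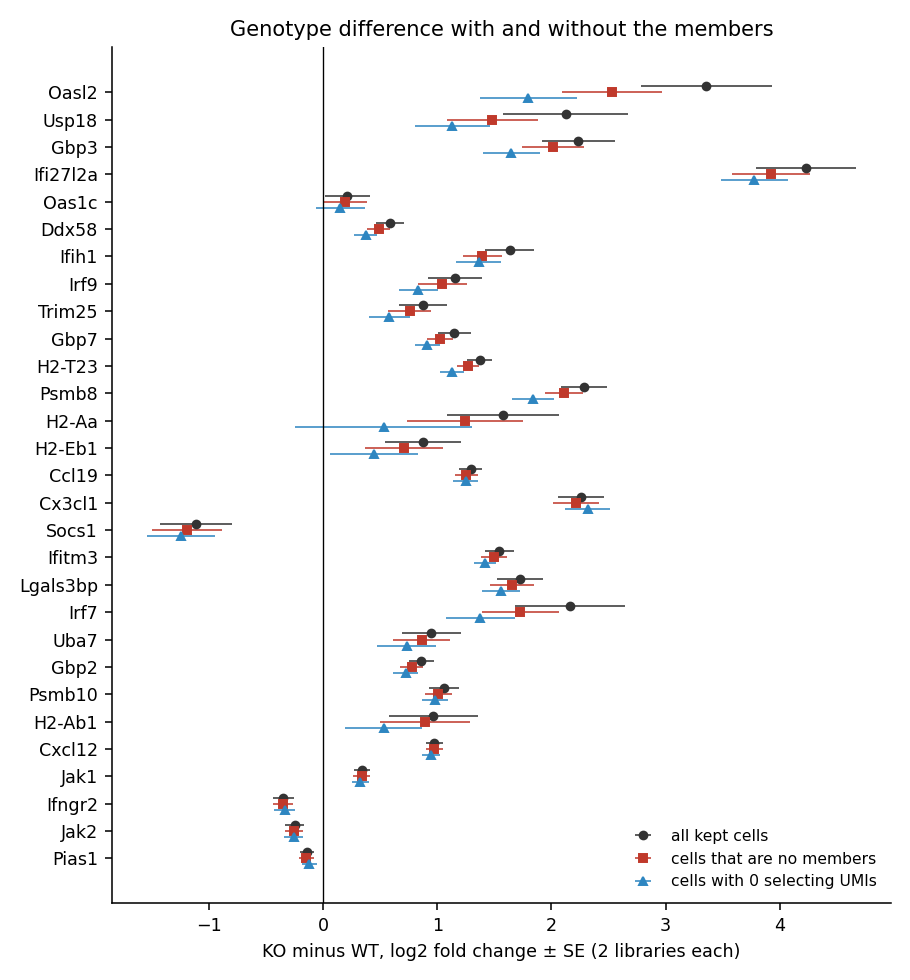
Log2 difference between KO and WT with its SE (x axis, 2 libraries per genotype) for up to 3 interferon-response genes with the smallest p in each role list (y axis), over all kept cells, without members, and over cells with 0 selecting UMIs. Oasl2, Usp18 and Irf7 shift left as members and then cells with any selecting UMI are left out, while Ifitm3, Cxcl12 and Cx3cl1 stay close together.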

How the data were processed

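Per the file headers, the authors' matrices were made with Cell Ranger 5.0.1 and hold UMI counts per gene and cell, which were used as deposited. The submitters' processing notes also name mm10 and Seurat 4.0, with no role. Of 32287 gene identifiers, 32158 matched GENCODE M21. The members, the gene lists and the tests were chosen with earlier results of these data known. The filters left 13468 of 14696 barcodes. No doublet caller was run; 7.05 and 14.3% of members of KO 1 and KO 2, and 4.05 and 4.47% of comparison cells, lay among the 5% of kept cells with most UMIs in their library. Counts were summed per library and class, filtered for low counts, scaled with TMM and tested with edgeR 4.0.16 (quasi-likelihood, Benjamini-Hochberg adjustment, R 4.3.3), with the library as a block for members against comparison cells and without it for KO against WT. The block pairs the classes of 1 library. Each SE is the size of the log2 difference divided by the square root of the test's F, so it rests on the same spread as the p-value. CPM are UMIs per 1000000, with these factors for tested genes and without them for sums of lists, groups by UMI number and selecting genes. DESeq2 1.42.0 and limma 3.58.1 were alternatives. On simulated counts the test of members recovered 78% of 2-fold and 96% of 4-fold rises, and 56% and 68% of falls to 0.5 and 0.25 of the level. The simulation drew sums with a single fixed spread and changed only genes above a floor of counts. It held no gene whose UMIs come mostly from a single cell, so it cannot show how the test handles such genes.

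Named genes were the 12 largest rises and falls averaging 20 CPM or more with 1 direction in both KO libraries, the 3 smallest p of each list in the members, the 3 smallest p of each interferon list between genotypes, and the reporters and receptors. B2m, Ifitm2, Daxx, Irf2, Irf3, Etv6, Mavs, Tmem173, Cxcl10, Mustn1, Fabp4 and the markers of single cells were chosen after their values were seen. So were the smooth muscle criterion and the fit without members of 20 or more selecting UMIs. A few genes that the rule names are not reported here.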

Additional observations from a re-analysis of the deposited data

Results flagged for a closer look

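For 2 named genes the members lay above the comparison cells in both WT libraries (3 and 2 cells) and below them in both KO libraries, and the difference between genotypes was not tested. Tes, a focal adhesion protein, had a log2 difference of -0.54 in KO, from 88.1 to 67.7 CPM in KO 1 and from 117 to 60.7 CPM in KO 2, and stood at 105 and 149 CPM in comparison cells and members of WT 1 and at 109 and 116 CPM in WT 2. The WT members held 6 and 5 UMIs of Tes, too few to read a movement from. Id4, an inhibitor of DNA binding, had -0.51 in KO and stood at 142 and 223 CPM in WT 1 and at 133 and 347 CPM in WT 2, on 9 and 15 UMIs in the WT members.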

How the results depend on the processing

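Interferon-response genes that rose in members numbered 75 and between 53 and 79 under every alternative except without the members of 20 or more selecting UMIs, which gave 46. All genes that rose numbered 144 with DESeq2, 154 with no replicate block, 141 with at least 10 selecting UMIs, 93 without cells that had 2 or more UMIs of other cell types' markers, 150 without members of 20 or more and 141 under the smooth muscle criterion. Genes that fell numbered 3, 4, 16, 1 and 19 in the first 5 of these, and 24 without the 5% of cells with most UMIs, 7 over all 4 libraries, 90 with at least 3 selecting UMIs, 29 against cells with fewer than 5 and 13 with limma-voom. Leaving out a KO library leaves no residual degrees of freedom, so it gave values and no counts. Between genotypes, leaving out 1 library gave 756 to 1083 genes that rose, 1019 to 1286 that fell and 34 to 52 interferon-response genes that rose, the lowest counts without WT 1; the lone library is then assumed to vary like the others. With the replicate block 1552 rose and 1816 fell, 53 of the former interferon-response genes. Deviations of WT 1 and KO 1 from their genotype means correlated at 0.0426 over genes. With 2 libraries per genotype this cannot decide whether same-numbered libraries belong together, and the labels do not say. Shares of members were 0.412, 0.276, 6.80 and 1.59% with at least 3 selecting UMIs and 0.0823, 0, 1.62 and 0.170% with at least 10, in WT 1, WT 2, KO 1 and KO 2, and 4.78 and 1.19% in KO 1 and KO 2 after thinning. The cause of these changes was not tested. WT holds 5 members, and that number limits what can be said of them.

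Log2 differences of the following genes changed sign in members. Under the smooth muscle criterion Cytl1 had -1.15, Cd74 -0.16, Fbln2 -0.51, Cd14 -0.0026, Ptprb -1.16, tdTomato -0.24 and H2-Ab1 -0.44. Without cells of other cell types' markers Cd74 had -7.57, Eln -0.047, C4b -9.04, Cd14 -0.38, Rgs5 0.24, tdTomato -2.785, H2-Ab1 -1.25, Ifngr2 0.013 and Tgfbr1 0.042. With at least 10 selecting UMIs Ifnar2 had -0.12, C4b -1.425, Cd14 -8.01, Ighm 0.15 and Jak1 -0.061. With at least 3, Ighm had 0.25, Cxcl12 0.095, Jak2 -0.061 and Tgfbr1 0.018. With 5 per 15000 UMIs Cd14 had -0.34 and Cxcl12 0.11. With DESeq2 Cd14 had -0.27 and Tgfbr1 0.015. With limma-voom Ighm had 0.79. Without the 5% of cells with most UMIs Ighm had 0.0077 and Tgfbr1 0.12. Without members of 20 or more Ighm had 0.15 and Tgfbr1 0.094. With no replicate block Ighm had 0.18 and Ifngr2 0.00083. With no TMM factors Tgfbr1 had 0.020. Without KO replicate 1 and without KO replicate 2, C4b had 2.63 and -0.25, Lyz2 -0.60 and 4.73, and Psmb10 -0.29 and 1.45. These 3 were called; 9 genes with no call also changed sign, Cd14 to -3.94, Sdf2l1 to -0.35, Oas1c to -0.12, Notch3 to -0.039, Pias1 to -0.016, Cxcl12 to 0.067, Tgfbr1 to 0.15 and Rgs5 to 0.29 without KO replicate 1, and Ighm to 0.024 without KO replicate 2. Of 77 called genes among the 104 named for members, 26 moved by over 1.5 times in 1 of the libraries alone. Of 24 called between genotypes, 6 moved by over 1.5 times and 9 lost their call without some 1 library; none of the 30 named there changed sign.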
